A study of Arabidopsis thaliana with 27 samples.

Results

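The comparison described here is a single step in salt dose, from 50 to 75 mM NaCl, in seedlings of Arabidopsis thaliana, the small crucifer used as a model plant. Its members are the 3 arrays labelled 75 mM NaCl and the 3 arrays labelled 50 mM NaCl, 6 of the 27 arrays of the series, taken by their labels and with no regard to any measured value. Each array holds total RNA of whole 2-week-old seedlings of the Col-0 accession, shoot and root together, sown and grown on agar plates of ATS, a defined mineral medium. The NaCl 75 mM plates and the NaCl 50 mM plates differed only in the salt added, so the plants had met that dose since germination. The other arrays come from plates without added salt or osmolyte (the control), with 100 or 125 mM NaCl, or with 100, 150, 200 or 250 mM sorbitol, and they enter here only where a level or a step is set beside the one from 50 to 75 mM. Sorbitol at 150 and 100 mM is the iso-osmolar counterpart of NaCl at 75 and 50 mM. The question is what changes in the transcriptome when a mild salt dose is raised by a single increment, and whether the same osmotic increment made with sorbitol changes it in the same way.

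Salt acts on a plant in more than a single way. It lowers the water potential of the medium, which plants read partly through the hormone abscisic acid (ABA), and it loads tissue with sodium and chloride, which compete with potassium and nitrate and must be kept out of the shoot or stored in vacuoles. Transporters such as SOS1, HKT1 and the NHX exchangers move sodium across membranes, anion channels and nitrate transporter relatives move chloride, and growth, nutrient and defence programmes change alongside. Because whole seedlings were extracted, fewer cells of a type and less RNA per cell of that type cannot be told apart in these data.

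A level below is the log2 of an array's quantile-normalized fluorescence for the gene's brightest probe, and a difference is the mean level at 75 mM minus the mean level at 50 mM. Levels of different genes come from different probes and are not compared. A slide of this design carries 4 arrays, and of the 6 arrays only replicate 1 at 75 mM and replicate 1 at 50 mM shared one. The other arrays of each dose lay on a slide without the other dose. Before normalization the median signal was between 728 and 797 on the NaCl 75 mM arrays and between 916 and 1026 on the NaCl 50 mM arrays, without overlap. Between replicates the median gene had an SD of 2.66% of its signal at 75 mM and 2.47% at 50 mM. The labels do not say whether the 3 samples of a dose came from separate plates, so the p values measure the spread between these samples, which may be partly technical.

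Of 21511 genes tested with limma, 6002 (27.9%) passed an adjusted p of 0.01 on the step, 2749 (12.8%) higher at 75 mM and 3253 (15.1%) lower. Most of these differences were small. The median absolute difference of the genes past the threshold was 0.28, 930 genes changed at least 1.5-fold, and 225 (1.05%) changed at least 2-fold, 112 (0.521%) higher at 75 mM and 113 (0.525%) lower. With the arrays scaled to their 75th percentile instead, 157 were at least 2-fold higher and 93 lower, and the genes past 0.01 were 3260 higher and 3075 lower. Of the 6002 genes, 5994 had all 3 arrays at 75 mM on the same side of all 3 arrays at 50 mM. Of all genes tested, 25.3% had all 3 arrays at 75 mM above and 33.3% had them below. With the slide as a term in the fit, 4517 of the 6002 genes (75.3%) passed again and 0 had the opposite sign. SAND (AT2G28390), a housekeeping gene used as a stable standard in plant expression work, was 12.31, 12.38 and 12.37 at 75 mM and 12.33, 12.38 and 12.38 at 50 mM (adjusted p = 0.874). Over all genes the median difference was -0.02.

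The largest rise among genes detected on all 6 arrays was that of AT4G14370, with levels of 6.94, 6.90 and 6.86 at 75 mM and 5.05, 4.99 and 4.59 at 50 mM, a difference of 2.03 ± 0.11 (SE). With normexp background correction, which adds an offset to every signal, its difference was 0.56, below the 1.93 of PHI-1. PHI-1 (AT1G35140), a phosphate-induced protein of the EXORDIUM family found in the cell wall, had levels of 15.18, 15.18 and 15.08 at 75 mM, against 13.21, 13.22 and 13.17 at 50 mM. This was a 3.86-fold rise, with an adjusted p of 3.53e-20 from limma. The pectin methylesterase gene ATPMEPCRB (AT4G02330) was at 13.31, 13.22 and 13.25 at 75 mM and at 11.58, 11.56 and 11.57 at 50 mM, 3.23-fold higher at 75 mM. In each of these genes the gap between the doses was larger than the range within either dose.

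EBF1 (AT2G25490), the F-box protein that marks the ethylene transcription factor EIN3 for degradation, was 12.34, 12.33 and 12.38 at 75 mM and 10.80, 10.87 and 10.83 at 50 mM. This 2.86-fold rise was read by its bright probe, while a dim second probe gave a difference of 0.11. CYP707A2 (AT2G29090), a hydroxylase that breaks down ABA, was 6.78, 6.71 and 6.80 at 75 mM and 5.28, 5.30 and 5.23 at 50 mM, 2.81-fold higher. SLAH3 (AT5G24030), a slow-type anion channel for nitrate and chloride, had levels of 14.26, 14.26 and 14.29 at 75 mM against 12.79, 12.80 and 12.78 at 50 mM, 2.78-fold higher. The arrays of the doses did not overlap in any of them, which the choice of leading genes required.

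XTH23 (AT4G25810), which encodes a xyloglucan endotransglucosylase/hydrolase that cuts and rejoins wall xyloglucan, rose by 1.44 ± 0.04 (SE). NATA1 (AT2G39030), an N-acetyltransferase that acetylates ornithine, rose by 1.65 ± 0.15, and MBP1 (AT1G52040), a myrosinase-binding protein of the glucosinolate defence, by 1.47 ± 0.04. MRD1 (AT1G53480) rose by 1.58 ± 0.09. AT1G26390 (an FAD-binding domain protein), AT1G73550 (annotated as lipid binding), AT5G57565, AT3G56480 and AT1G63057 rose by between 1.40 and 1.45. AT1G63057 overlaps AT1G63055 in the annotation, which rose by 1.19 ± 0.16, and the probes of the pair may not be independent. AT5G57565 lies next to XTH22, with no other gene of the array between them, and XTH22 is described with the wall genes.

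**Figure D1:**
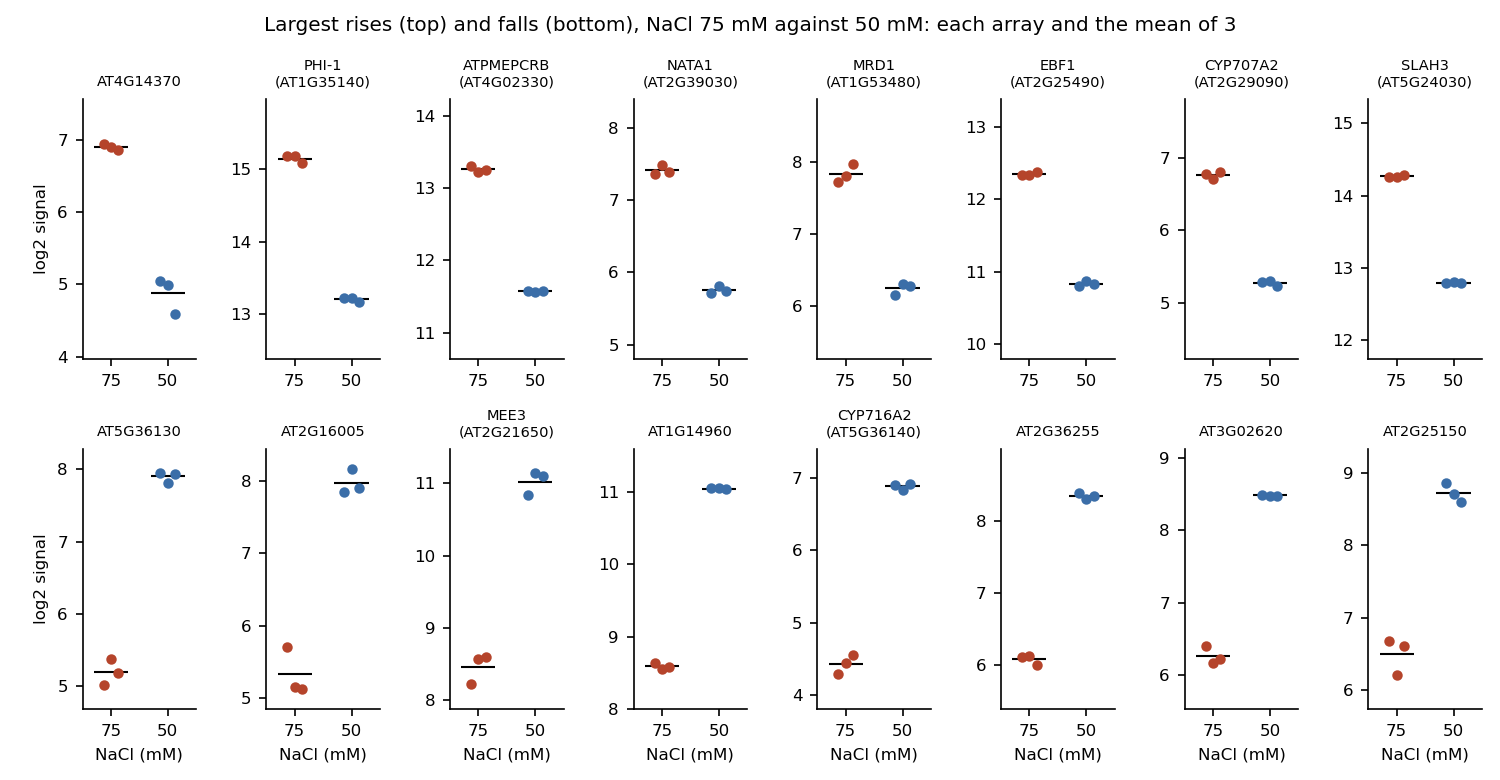
Log2 signal of the 8 largest rises (top row) and the 8 largest falls (bottom row), each panel with the 3 arrays at 75 mM NaCl (red, left) and the 3 at 50 mM (blue, right) and a line at each mean; every panel spans the same number of log2 units. In each panel the arrays of the doses do not overlap, as the choice of genes required. The differences of the means run, in size, from 1.48 for SLAH3 to 2.71 for AT5G36130.

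The largest falls exceeded the largest rises in size. AT5G36130 had levels of 5.02, 5.37 and 5.18 at 75 mM and 7.95, 7.81 and 7.94 at 50 mM, 6.55-fold lower at 75 mM, with a difference of -2.71 ± 0.09 (SE, adjusted p = 4.77e-15 by limma). Its neighbour CYP716A2 (AT5G36140), a cytochrome P450 that oxidises triterpenes, was 4.30, 4.45 and 4.55 at 75 mM and 6.90, 6.84 and 6.92 at 50 mM, 5.47-fold lower. The genes are similar in sequence, and whether their probes tell them apart was not tested. AT2G16005 was 5.70, 5.16 and 5.13 at 75 mM against 7.85, 8.17 and 7.91 at 50 mM, 6.26-fold lower. MEE3 (AT2G21650), a MYB-related transcription factor, was 8.22, 8.57 and 8.60 at 75 mM and 10.83, 11.14 and 11.10 at 50 mM, 5.89-fold lower. AT1G14960, annotated as a major latex protein relative, was 8.63, 8.54 and 8.58 at 75 mM and 11.05, 11.05 and 11.04 at 50 mM, which is 5.50-fold lower, and had the smallest standard error of these, 0.03. With normexp background correction the order of these falls changed, with differences of -2.12 for MEE3, -1.98 for AT1G14960, -1.05 for AT5G36130 and -0.64 for CYP716A2. Of the 30 leading rises and falls, 16 had a fold over 1.5 times smaller under that correction.

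The other leading falls included AIR1 (AT4G12550), a gene found as auxin-induced in root cultures, with 9.88, 10.07 and 10.01 at 75 mM and 11.91, 11.98 and 12.03 at 50 mM. A pair of plant defensin genes of the jasmonate and ethylene response also fell. PDF1.2b (AT2G26020) was 5.15, 5.47 and 5.45 at 75 mM and 7.37, 7.17 and 7.10 at 50 mM, and PDF1.2 (AT5G44420) was 8.28, 8.06 and 8.25 at 75 mM and 10.14, 10.22 and 10.19 at 50 mM. The probes of these near-identical genes may read each other's transcripts. The PDF1.2 fall of 1.99 ± 0.57 (adjusted p = 0.00844) had a wide error, which in this fit is shared by all 27 arrays. The SD of its level at 125 mM NaCl was 2.07 against 0.12 at 75 mM and 0.04 at 50 mM, and the fall missed the threshold in 11 of 16 alternative settings, each of the 6 that left out an array of either dose among them. AT2G36255, AT3G02620, AT2G25150, AT5G04120, AT4G37700 and AT3G16670 fell by between 1.91 and 2.25, and AT5G44973 was 4.88, 4.97 and 5.10 at 75 mM and 6.83, 6.72 and 6.82 at 50 mM.

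Some genes crossed the detection limit on the step, and their changes are lower bounds. For these the dim dose was represented on each array by the lowest signal that any probe well above background had there, or by the gene's own where this was higher. AT4G36700 was well above background on the 3 arrays at 75 mM (6.20, 6.21 and 6.12) and on 0 at 50 mM (3.37, 3.83 and 3.75), at least 3.81-fold higher. AT3G44080 (at least 3.35-fold), the senescence-associated gene SAG13 (at least 2.93-fold), AT2G44240 (at least 1.68-fold) and the thionin gene THI2.1 (at least 1.49-fold) were likewise detected only at 75 mM. Another THI2.1 probe gave a difference of -0.01. Detected only at 50 mM were the cytochrome P450 gene CYP76C4 (at least 4.41-fold lower at 75 mM), the phosphate transporter gene PHT1;3 (at least 2.27-fold lower) and AT3G49340, a putative cysteine proteinase (at least 1.71-fold lower). These 8 genes were chosen by their detection at a single dose, so no test is given for them.

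The levels over the whole NaCl series show where the step lies in each gene's course. EBF1 had a mean of 12.41 ± 0.02 (SD, n = 3) in the control, 10.83 ± 0.03 at 50 mM, 12.35 ± 0.03 at 75 mM, 12.88 ± 0.04 at 100 mM and 13.14 ± 0.04 at 125 mM. Its level at 75 mM was thus near that of the control, and the lowest level of the series was at 50 mM. PHI-1 was also lowest at 50 mM, with means of 14.47 in the control, 13.20 at 50 mM, 15.15 at 75 mM, 15.15 at 100 mM and 14.72 at 125 mM. SLAH3 had 13.63, 12.79, 14.27, 14.18 and 14.21 in that order, and CYP707A2 had 6.66, 5.27, 6.76, 8.47 and 10.27. NATA1, ATPMEPCRB and MBP1 had their lowest level in the control instead: NATA1 was 2.27 in the control, 5.76 at 50 mM, 7.41 at 75 mM, 12.66 at 100 mM and 11.68 at 125 mM. The NATA1 control level lies below 3.44, the lowest signal well above background on any of the 6 arrays of the step. The size of its gap to 50 mM is therefore uncertain.

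Among the falls, several genes were lowest at 75 mM. AT5G36130 had means of 7.97 in the control, 7.90 at 50 mM, 5.19 at 75 mM, 7.99 at 100 mM and 9.78 at 125 mM. AT2G16005 had 7.36, 7.98, 5.33, 8.72 and 10.31 in that order, and AT1G14960 had 12.42, 11.05, 8.59, 10.86 and 11.68. AIR1 had 11.41, 11.97, 9.99, 12.24 and 9.36, low at 75 and at 125 mM. MEE3 went down through the whole series, with 12.45 in the control, 11.02 at 50 mM, 8.46 at 75 mM, 8.23 at 100 mM and 7.17 at 125 mM. The mean of PDF1.2 also went down throughout, with 10.76, 10.18, 8.20, 5.19 and 3.77. Its SD at 125 mM, 2.07, was larger in size than its last difference, -1.41. These courses share the arrays of the step and are given as levels only.

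**Figure D2:**
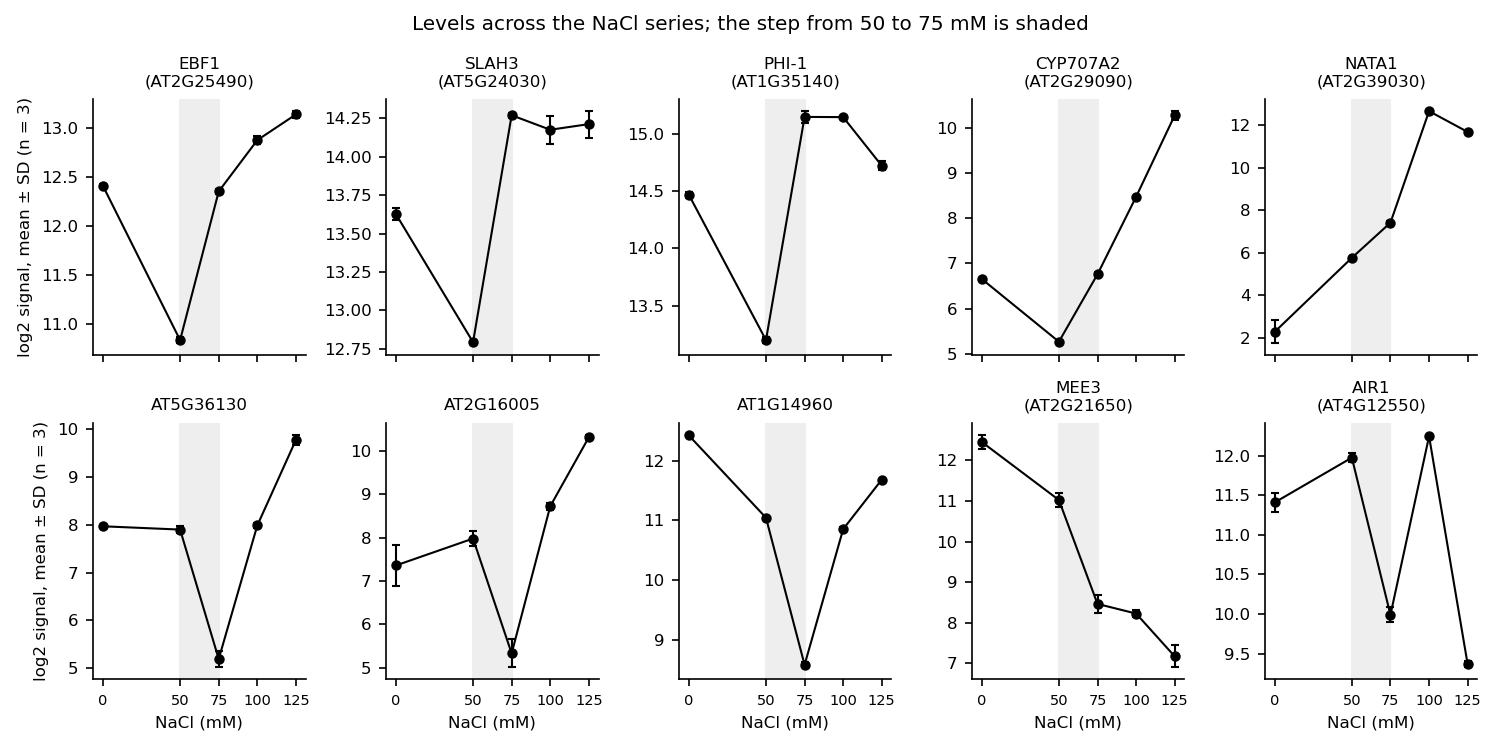
Mean log2 signal (points) with SD over 3 arrays (bars) against NaCl dose in mM for 5 genes that rose (top) and 5 that fell (bottom) from 50 to 75 mM, the shaded interval; each panel has its own vertical scale. EBF1, SLAH3, PHI-1 and CYP707A2 were lowest at 50 mM, and AT5G36130, AT2G16005 and AT1G14960 were lowest at 75 mM. The control point of NATA1 lies below the lowest signal well above background on any array of the step.

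Root marker genes were lower at 75 mM. The list held genes of root hairs (COBL9, EXPA7, EXPA18, RSL4, RHD6), of the endodermis, the barrier layer around the root's vessels (CASP1 to CASP5), the root tonoplast aquaporin TIP2;3 and the root beta-glucosidase BGLU23. Of 12 members tested, 10 were lower past 0.01 and 0 higher, against 15.1% and 12.8% of all genes, with a median difference of -0.35. TIP2;3 (AT5G47450) was 10.97, 10.99 and 11.00 at 75 mM and 11.75, 11.88 and 11.79 at 50 mM, 1.76-fold lower. RSL4, the transcription factor that sets root hair length, fell by 0.59 ± 0.03 (SE), and CASP1, a scaffold of the Casparian strip, by 0.39 ± 0.04. RHD6 (0.07 ± 0.06, adjusted p = 0.422) and BGLU23 (0.01 ± 0.05, adjusted p = 0.862) did not pass. The summed signal of the list, most of it from BGLU23, was between 144874 and 150240 at 75 mM and between 152845 and 156561 at 50 mM. These markers moved with the falls of the aquaporin, triterpene and other root-expressed genes described here, and their part in those falls was not tested. The tested markers of pollen and flowers, few in such seedlings, had a summed signal of 829 to 866 at 75 mM and of 1082 to 1177 at 50 mM, and those of guard cells 37533 to 40074 at 75 mM and 35159 to 35740 at 50 mM. The mean level of TIP2;3 was 12.13 in the control, 11.81 at 50 mM, 10.99 at 75 mM, 10.77 at 100 mM and 8.93 at 125 mM.

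Genes that make root triterpenes fell as a group. This group was put together after values were seen, from the thalianol and marneral gene clusters, the CYP716A genes and a squalene epoxidase gene, so its counts are a description. Triterpenes are made from squalene epoxide by oxidosqualene cyclases and then decorated by cytochrome P450s and acyltransferases. Of 12 members 11 were tested, and these 11 were lower at 75 mM past 0.01, against 15.1% of all genes, with a median difference of -1.51 against -0.02 over all genes. The median was -1.20 with CYP708A2, which was not detected at 75 mM, set at its bound, and -0.64 with normexp background correction.

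MRN1 (AT5G42600), marneral synthase, was 8.72, 8.62 and 8.71 at 75 mM and 10.45, 10.47 and 10.50 at 50 mM, a 3.46-fold fall. THAS1 (AT5G48010), thalianol synthase, was 9.78, 9.59 and 9.74 at 75 mM and 10.94, 10.86 and 10.92 at 50 mM, a difference of -1.20 ± 0.06 (SE). The thalianol P450 gene CYP705A5 fell by 1.51 ± 0.09 (SE) and the marneral P450 gene CYP71A16 by 0.67 ± 0.04. CYP708A2, thalianol hydroxylase, was well above background on 0 of 3 arrays at 75 mM and on 2 of 3 at 50 mM (no higher than 3.35 on any array at 75 mM, against 4.35, 4.51 and 5.76 at 50 mM), and its adjusted p was 0.0470 with slide in the fit. SQP2, the squalene epoxidase gene, fell by 1.76 ± 0.16. Over the NaCl series MRN1 was 8.77 in the control, 10.47 at 50 mM, 8.68 at 75 mM, 11.81 at 100 mM and 12.83 at 125 mM.

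Aquaporins, the water channels of the plasma membrane (PIP) and vacuole (TIP), fell more often than they rose. Of 33 tested, 13 were lower at 75 mM and 1 was higher, against 15.1% and 12.8% of all genes. Besides TIP2;3, the root isoform PIP2;4 was 12.25, 12.24 and 12.32 at 75 mM and 12.95, 13.02 and 12.95 at 50 mM, 1.62-fold lower. TIP2;2 fell by 0.42 ± 0.04 (SE) and SIP1;2 by 0.40. PIP2;8 was the member that rose, by 0.20 ± 0.05. The probes of PIP1;1 disagreed, with differences between -0.27 and 0.15.

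Of the 43 sodium, potassium and anion transport genes tested, 8 were higher and 13 lower, against 12.8% and 15.1% of all genes. Besides SLAH3, HKT1 (AT4G10310), which takes sodium back out of the root xylem, was 9.76, 9.66 and 9.71 at 75 mM and 9.02, 9.03 and 8.97 at 50 mM, 1.63-fold higher. Its mean level was 9.45 in the control, 9.01 at 50 mM, 9.71 at 75 mM, 8.93 at 100 mM and 8.06 at 125 mM, highest at 75 mM. The thylakoid potassium exchanger gene KEA3 rose by 0.66 ± 0.04 (SE) and HAK5, the high-affinity potassium uptake transporter, by 0.44 ± 0.05. CHX17, a cation/proton exchanger, was 9.44, 9.38 and 9.42 at 75 mM and 10.56, 10.58 and 10.52 at 50 mM, lower by 1.14 ± 0.04. NPF2.4, which loads chloride into the xylem, was 2.01-fold lower, with 9.00, 8.94 and 8.94 at 75 mM and 9.98, 9.98 and 9.95 at 50 mM.

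SOS1 (AT2G01980), the plasma membrane sodium exchanger, had overlapping levels, 10.68, 10.68 and 10.60 at 75 mM and 10.78, 10.65 and 10.82 at 50 mM (adjusted p = 0.271). NHX3, another of the NHX exchangers, did not pass either, at 7.60, 7.74 and 7.67 at 75 mM against 7.53, 7.58 and 7.56 at 50 mM (adjusted p = 0.337). NHX1, a vacuolar sodium and potassium exchanger, fell by 0.13 ± 0.03, while another probe gave 0.08.

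ABA-related genes moved in both directions. Of the 4 CYP707A genes, which break ABA down, 3 were higher at 75 mM. Besides CYP707A2, CYP707A3 was 11.05, 10.96 and 10.89 at 75 mM and 10.18, 10.14 and 10.17 at 50 mM, and CYP707A1 was 6.59, 6.70 and 6.69 at 75 mM and 6.20, 6.24 and 6.09 at 50 mM. A dim probe of CYP707A3 gave -0.05, and CYP707A1 missed the threshold with slide in the fit (adjusted p = 0.0265). CYP707A4 had 7.15, 7.10 and 7.09 at 75 mM and 7.55, 7.57 and 7.49 at 50 mM and did not pass in the fit over all arrays (adjusted p = 0.757), whereas it passed with slide in a fit of the 12 arrays up to 100 mM NaCl (adjusted p = 0.00184). ABA1, the zeaxanthin epoxidase at the start of ABA synthesis, fell by 0.36 ± 0.04. The receptor gene PYL5 rose by 0.45 ± 0.03 and HAI1, a phosphatase that restrains ABA signalling, by 0.39 ± 0.09. Of 41 genes of ABA metabolism and signalling tested, 11 were higher and 6 lower, against 12.8% and 15.1% of all genes.

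The 32 ABA and dehydration marker genes had 6 members higher and 9 lower, against 12.8% and 15.1% of all genes. GOLS2, a galactinol synthase of osmoprotectant raffinose synthesis, was 8.88, 8.84 and 8.93 at 75 mM and 9.81, 9.82 and 9.85 at 50 mM, 1.92-fold lower. RD29B fell by 0.88 ± 0.09 and the homeodomain factor gene ATHB-12 by 0.69 ± 0.06. RD29A (AT5G52310) was 14.40, 14.33 and 14.40 at 75 mM and 14.68, 14.65 and 14.60 at 50 mM, a fall of 0.26 ± 0.05, with a control mean of 12.96. In the other direction the lipid transfer protein gene LTP3 rose by 0.47 ± 0.04, COR15A by 0.40 and the caleosin gene RD20 by 0.31 ± 0.04. P5CS1, which makes the osmolyte proline, was 12.82, 12.97 and 12.91 at 75 mM and 12.86, 12.92 and 12.88 at 50 mM, with overlapping arrays (adjusted p = 0.835). Of 10 proline genes tested, P5CR and ProDH1 rose, by 0.31 and 0.18.

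Of 22 anthocyanin and flavonoid genes tested, 14 were higher at 75 mM and 2 lower, against 12.8% and 15.1% of all genes. Their median difference was 0.39. These genes turn phenylalanine into flavonols and the red anthocyanin pigments. DFR, dihydroflavonol reductase of the anthocyanin branch, was 12.39, 12.38 and 12.41 at 75 mM and 11.57, 11.51 and 11.54 at 50 mM, 1.81-fold higher. The anthocyanin xylosyltransferase gene UF3GT was 1.78-fold higher, the vacuolar sequestration gene TT19 was 1.75-fold higher, and the chalcone synthase gene TT4 was 1.45-fold higher. The activators PAP1 and TT8 rose by 0.46 ± 0.04 and 0.55 ± 0.09 (SE), and MYBL2, a repressor of the pathway, was 11.65, 11.59 and 11.60 at 75 mM against 12.40, 12.36 and 12.35 at 50 mM. The probes of 4CL3 disagreed in sign, with differences between -0.42 and 0.42. DFR had mean levels of 9.35 in the control, 11.54 at 50 mM, 12.39 at 75 mM, 14.37 at 100 mM and 15.13 at 125 mM, going up with every dose.

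**Figure D3:**
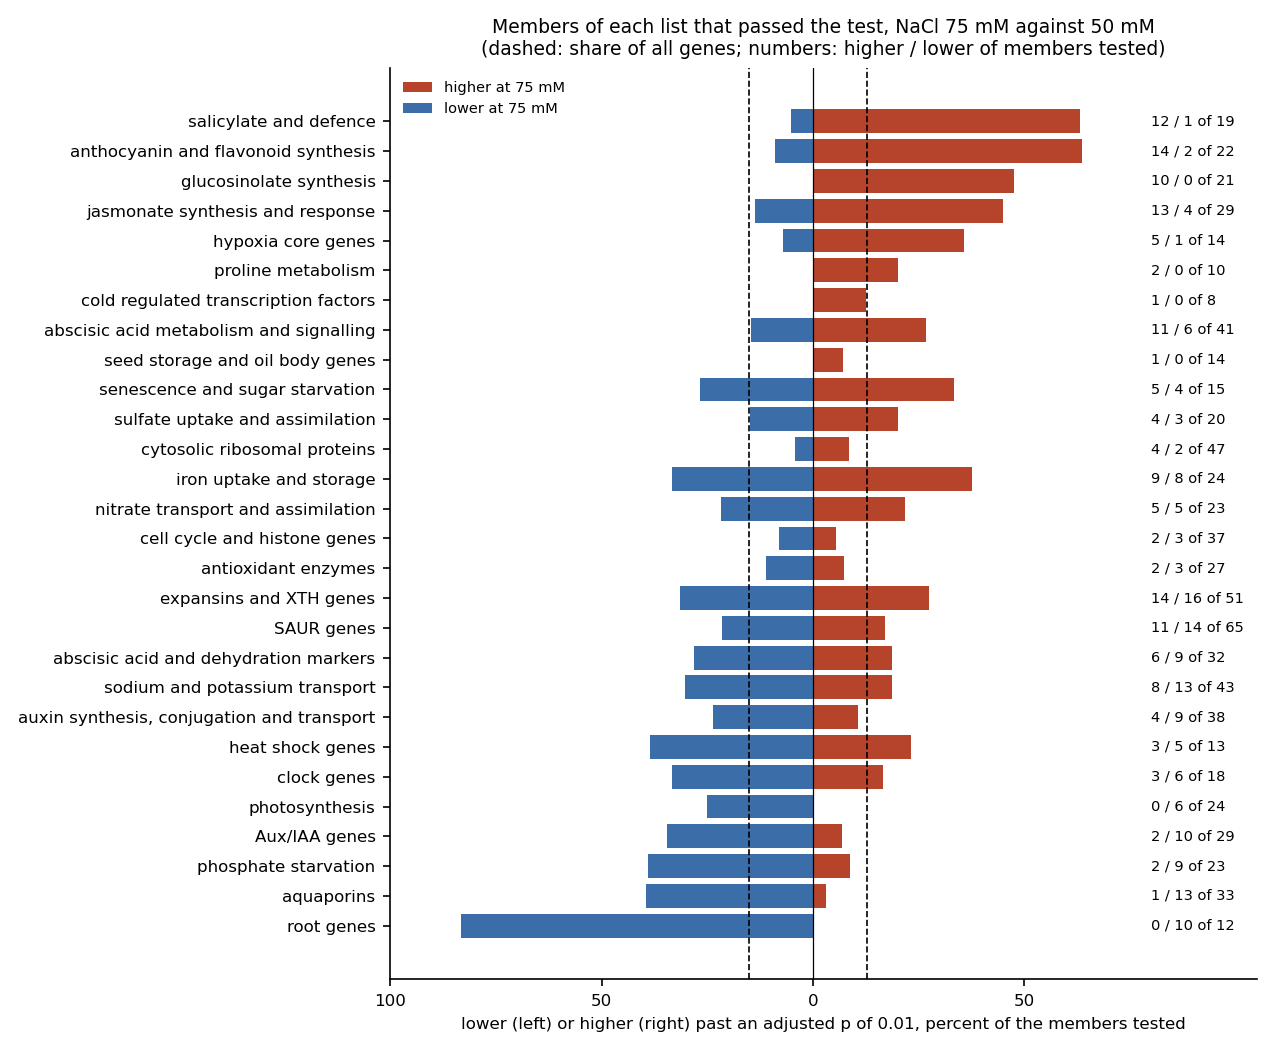
Share of each gene list, in percent of its members tested, that passed an adjusted p of 0.01 higher (red, right) or lower (blue, left) at 75 mM than at 50 mM NaCl; dashed lines give the same shares over all genes, 12.8% and 15.1%. Of the root genes, 0 of 12 were higher and 10 lower, and of the salicylate and defence genes 12 of 19 were higher and 1 lower.

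Of 19 genes of salicylate and pathogen defence tested, 12 were higher and 1 lower, against 12.8% and 15.1% of all genes. Their median difference was 0.28. WRKY18, a transcription factor of basal defence, was 13.56, 13.59 and 13.58 at 75 mM and 12.27, 12.33 and 12.32 at 50 mM, 2.42-fold higher. FRK1, a receptor kinase gene induced by bacterial flagellin, was 8.90, 8.85 and 8.82 at 75 mM and 7.85, 7.77 and 7.83 at 50 mM, 2.06-fold higher. CYP71A13, of camalexin synthesis, was well above background on the 3 arrays at 75 mM (4.84, 4.76 and 4.41) and on 0 at 50 mM (2.68, 3.09 and 2.94), at least 1.34-fold higher, and missed the threshold with normexp background correction. PR2, a glucanase used as a salicylate marker, rose by 0.42 ± 0.05 (SE) while PR5 fell by 0.31 ± 0.03.

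Of 29 jasmonate genes tested, 13 were higher and 4 lower, against 12.8% and 15.1% of all genes. The vegetative storage protein gene VSP2 was 15.60, 15.72 and 15.75 at 75 mM and 14.55, 14.61 and 14.57 at 50 mM, 2.17-fold higher, and its near-identical neighbour VSP1 rose by 1.07 ± 0.06. The lipoxygenase genes LOX4 and LOX3, at the start of jasmonate synthesis, rose by 0.85 and 0.58, although the LOX3 probes disagreed in sign. JAZ repressor genes JAZ1, JAZ5, JAZ6, JAZ7 and JAZ10 rose by between 0.29 and 0.41, JAZ9 fell by 0.19, and MYC2, the transcription factor they bind, fell by 0.12 ± 0.03. The PDF1.2 fall stands in this list as well.

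Glucosinolate synthesis genes, which make the sulfur-rich defence compounds of crucifers, had 10 of 21 members higher and 0 lower, with a median difference of 0.12. Over all genes, 12.8% were higher and 15.1% lower. MYB29, a regulator of the aliphatic branch, was 11.96, 11.89 and 11.85 at 75 mM and 11.55, 11.57 and 11.57 at 50 mM, 1.26-fold higher. CYP79F1 rose by 0.27 ± 0.03 (SE), SOT17 by 0.26 and MYB76 by 0.25. With slide in the fit, 6 of the 21 passed.

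Iron genes moved in both directions, 9 higher and 8 lower of 24 tested, against 12.8% and 15.1% of all genes. BTS, the E3 ligase that restrains the iron deficiency response, was 11.15, 11.20 and 11.20 at 75 mM and 9.73, 9.90 and 9.82 at 50 mM, 2.58-fold higher, while its dimmer probe gave 0.28. The IRON MAN peptide genes IMA1 and IMA2, neighbours of similar sequence, were 2.09-fold and 2.06-fold higher, and the nicotianamine synthase gene NAS4 was 1.77-fold higher. The iron storage genes FER1, FER4 and FER3 were lower: FER1 was 14.27, 14.29 and 14.31 at 75 mM and 14.94, 14.93 and 14.97 at 50 mM, 1.57-fold lower. The root uptake genes IRT1, the iron transporter, and FRO2, the ferric reductase, were lower by less, with differences of -0.33 ± 0.08 and -0.27 ± 0.03. IRT1 had mean levels of 8.29 in the control, 9.61 at 50 mM, 9.28 at 75 mM, 10.82 at 100 mM and 11.63 at 125 mM.

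**Figure D4:**
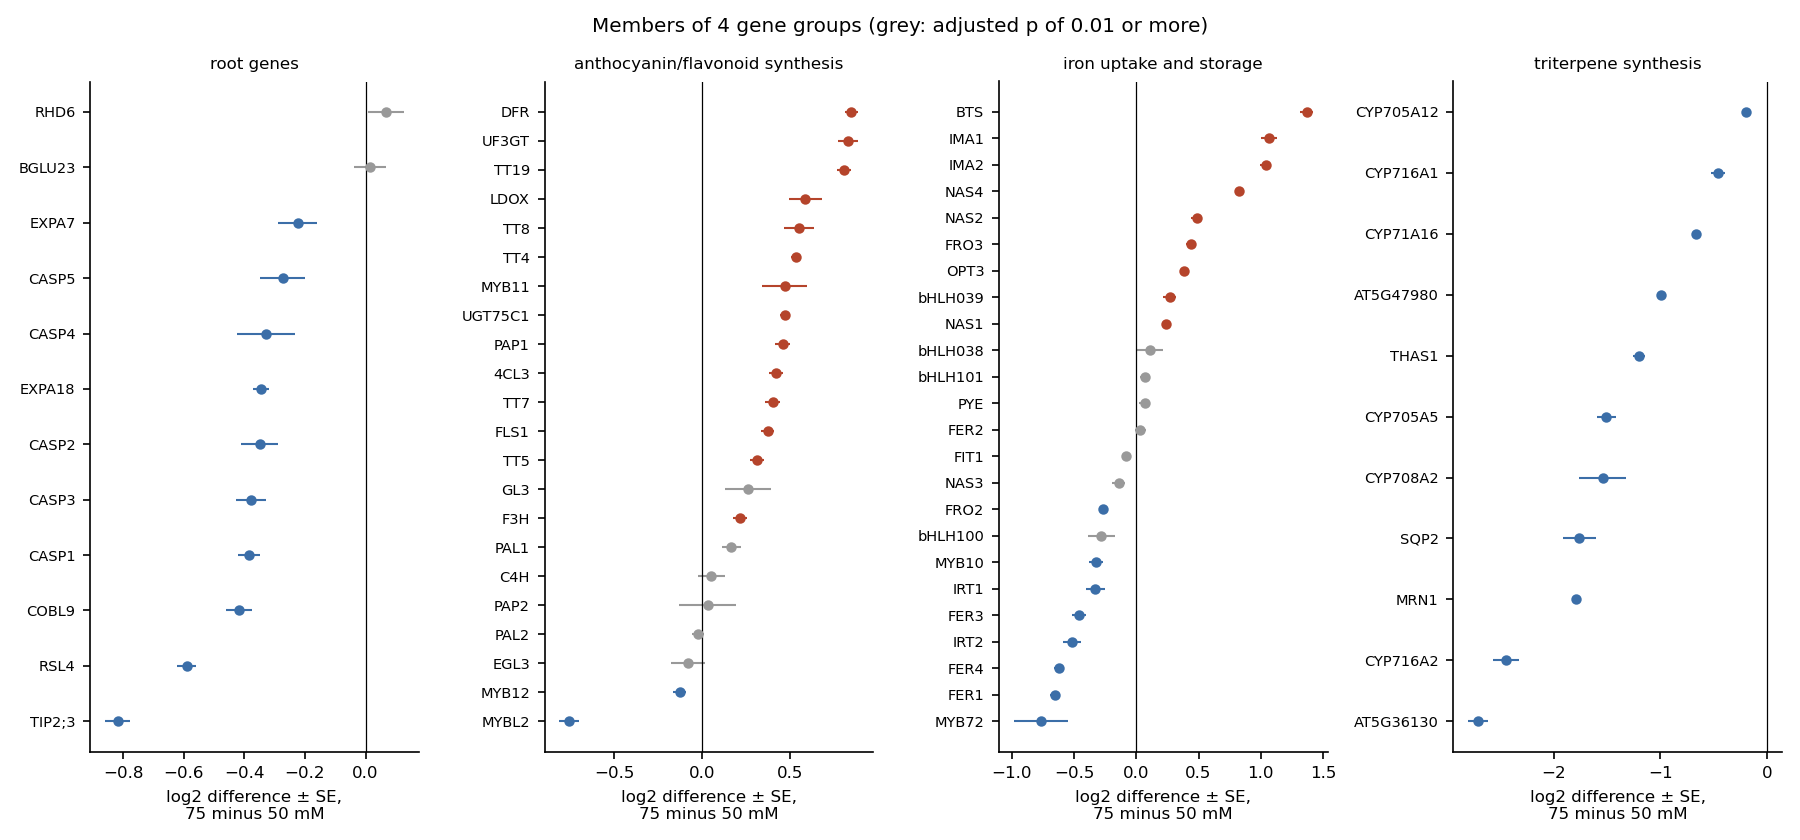
Log2 difference, 75 minus 50 mM NaCl, with its standard error (bars) for each member tested of the root, anthocyanin and flavonoid, iron and triterpene groups; red and blue points passed an adjusted p of 0.01 higher and lower at 75 mM, grey points did not. All 11 triterpene genes and 10 of 12 root genes lie left of 0 and past the threshold, 14 anthocyanin and flavonoid genes lie to the right and past it, and the iron genes lie on both sides.

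Cell wall and growth genes did not move as a block. Of 51 expansin and XTH genes tested, 14 were higher and 16 lower. XTH22 (also TCH4, a touch-induced gene) was 16.03, 15.99 and 15.99 at 75 mM and 14.69, 14.71 and 14.68 at 50 mM, 2.47-fold higher, and XTH33 was 2.12-fold higher. EXPA8 was 1.86-fold lower, with 12.04, 12.03 and 11.99 at 75 mM and 12.98, 12.85 and 12.93 at 50 mM. Genes named for induction by touch and the EXORDIUM family were gathered after their values were seen. Of 8 tested, 7 were higher and 0 lower, against 12.8% and 15.1% of all genes, which is a description of genes picked for their values: PHI-1, XTH23, EXO (1.33 ± 0.05), XTH22, TCH2 (0.84 ± 0.06), EXL5 (0.63 ± 0.11) and EXL3 (0.43 ± 0.09). EXL2 differed by 0.05 ± 0.04 and did not pass.

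Of 29 genes tested that bear an IAA number as a name or synonym, 2 were higher and 10 lower. Over all genes, 12.8% were higher and 15.1% lower. Most such names belong to Aux/IAA genes, which encode the repressors that auxin degrades and induces. The list was taken by name alone, with IAA22 (AT1G19220) among its members, so its counts are not counts of repressor genes only. IAA6 was 7.16, 7.19 and 7.22 at 75 mM and 6.42, 6.49 and 6.62 at 50 mM, and IAA5 was 7.96, 8.01 and 7.84 at 75 mM and 8.41, 8.34 and 8.38 at 50 mM. Of 65 SAUR genes tested, a family of short auxin-induced transcripts that promote cell expansion, 11 were higher and 14 lower (13 and 11 with 75th percentile scaling), from -1.02 ± 0.10 for SAUR40 to 0.96 ± 0.08 for SAUR8. Of 38 genes of auxin synthesis, conjugation and transport tested, 4 were higher and 9 lower. The influx carrier gene AUX1 rose by 0.56 ± 0.06, while the auxin-conjugating GH3.2 fell by 0.62 ± 0.09 and the auxin synthesis gene YUC2 by 0.57 ± 0.10. NIT2 (AT3G44300), a nitrilase that can release auxin from indole-3-acetonitrile, was 11.50, 11.39 and 11.40 at 75 mM and 11.38, 11.31 and 11.25 at 50 mM and did not pass (adjusted p = 0.0388). Its mean level was 10.35 in the control, 11.31 at 50 mM, 11.43 at 75 mM, 12.12 at 100 mM and 13.35 at 125 mM.

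Of 24 photosynthesis genes tested, 0 were higher and 6 lower, against 12.8% and 15.1% of all genes. Their median difference of -0.07 was 0.11 with 75th percentile scaling, where 1 was higher and 4 lower. The falls were led by the light-harvesting gene LHCB2.3 at 14.10, 14.13 and 14.19 at 75 mM and 15.01, 14.99 and 15.01 at 50 mM, 1.82-fold lower. The family has near-identical copies. With the mean of all probes 11 members passed, and with normexp background correction 3. Of 23 phosphate starvation genes, 2 were higher and 9 lower. MGD3, of galactolipid synthesis, was 1.82-fold lower, and PHF1, which lets phosphate transporters leave the endoplasmic reticulum, was 1.70-fold higher. Of 18 clock genes, 3 were higher and 6 lower. The morning genes LHY and CCA1 had differences of -0.55 ± 0.08 and -0.38 ± 0.05 (SE), PRR3 rose by 0.74 ± 0.05, and another CCA1 probe gave 0.08. The labels give no time of harvest for either dose. Cytosolic ribosomal proteins (4 higher and 2 lower of 47) and cell cycle and histone genes (2 higher and 3 lower of 37) had smaller shares past the threshold than all genes.

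The same osmotic increment made with sorbitol gave a different set of changes. The sorbitol step, 150 against 100 mM, was measured on 6 other arrays that share no slide with the NaCl step, though all 27 arrays were normalized together. It put 9450 genes (43.9%) past 0.01, 5463 higher and 3987 lower. Of the 2749 genes that rose on the NaCl step, 1525 (55.5%) fell on the sorbitol step and 428 (15.6%) rose, against 18.5% and 25.4% of all genes. Those 1525 genes were 38.2% of the genes that fell on sorbitol. Of the 3253 genes that fell on the NaCl step, 1532 (47.1%) rose on the sorbitol step, which was 28.0% of the genes that rose there, and 406 (12.5%) fell. Over 21511 genes the correlation of the steps was r = -0.24, given as a description, since genes are not independent and all arrays share a normalization. Replicate 1 at sorbitol 150 mM lay farther from the others (root mean square distances of 0.43 and 0.43) than these from each other (0.34). Without it, 1464 of the genes that rose and 1564 of the genes that fell on the NaCl step went the opposite way on the sorbitol step, and r was -0.21. Between the pairs of arrays that shared a slide, 1 pair for each step, r was -0.20 over 21505 genes.

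The difference between the steps was tested gene by gene, and 9019 genes (41.9%) passed 0.01, 3654 (17%) with the NaCl step above the sorbitol step and 5365 (24.9%) with it below. The largest negative differences were in the falling genes. AT5G36130 fell by 2.71 on the NaCl step and rose by 3.79 ± 0.09 (SE) on the sorbitol step, with means of 9.99 at sorbitol 150 mM and 6.20 at sorbitol 100 mM. CYP716A2, AT2G16005, AT5G04120 and AT2G25150 had the same pattern, with differences between the steps from -6.26 to -5.52. The triterpene group, all lower on the NaCl step, had 10 of 11 members higher on the sorbitol step, with a median of 2.86, and in CYP716A1 the sorbitol step was -0.05. The root list, with 10 of 12 members lower on the NaCl step, had 9 higher and 1 lower on the sorbitol step. Over all genes, 25.4% were higher and 18.5% lower on the sorbitol step. The NaCl step lay below the sorbitol step past 0.01 in 10 of the 12 and above it in CASP5.

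Among genes detected at each dose of both steps, large positive differences were those of AT1G63055 (4.56) and ChlAKR (3.83), a chloroplast aldo-keto reductase gene that detoxifies reactive carbonyls. ChlAKR was 9.87, 9.81 and 9.81 at 75 mM NaCl against 8.92, 8.89 and 8.94 at 50 mM, and its means were 6.50 at sorbitol 150 mM and 9.42 at sorbitol 100 mM. AT1G63057, AT2G36255 and AT3G44080 also had large positive differences, but were well above background on 0 of 3 arrays at sorbitol 150 mM, AT3G44080 on 0 at sorbitol 100 mM and NaCl 50 mM too, so the sizes of these differences are not measured. Of the transport genes, HKT1 rose by 0.70 on the NaCl step and fell by 1.26 ± 0.06 on the sorbitol step (difference 1.96, adjusted p = 1.71e-13 by limma), and SLAH3 had 1.48 on the NaCl step and -0.66 on the sorbitol step. MBP1 rose by 1.47 on the NaCl step and by 1.62 on the sorbitol step, and their difference of -0.14 ± 0.05 (SE) did not pass (adjusted p = 0.0326). The anthocyanin genes DFR (0.85 on NaCl and 0.15 on sorbitol) and PAP1 (0.46 on NaCl and 0.51 on sorbitol) rose on both steps. Of the iron genes, 6 of 24 were higher and 17 lower on the sorbitol step, against 25.4% and 18.5% of all genes. IMA1 fell there by 2.72 and BTS by 1.79, while the storage genes FER1, FER3 and FER4 all rose, FER3 by 1.12 and FER4 by 1.02.

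**Figure D5:**
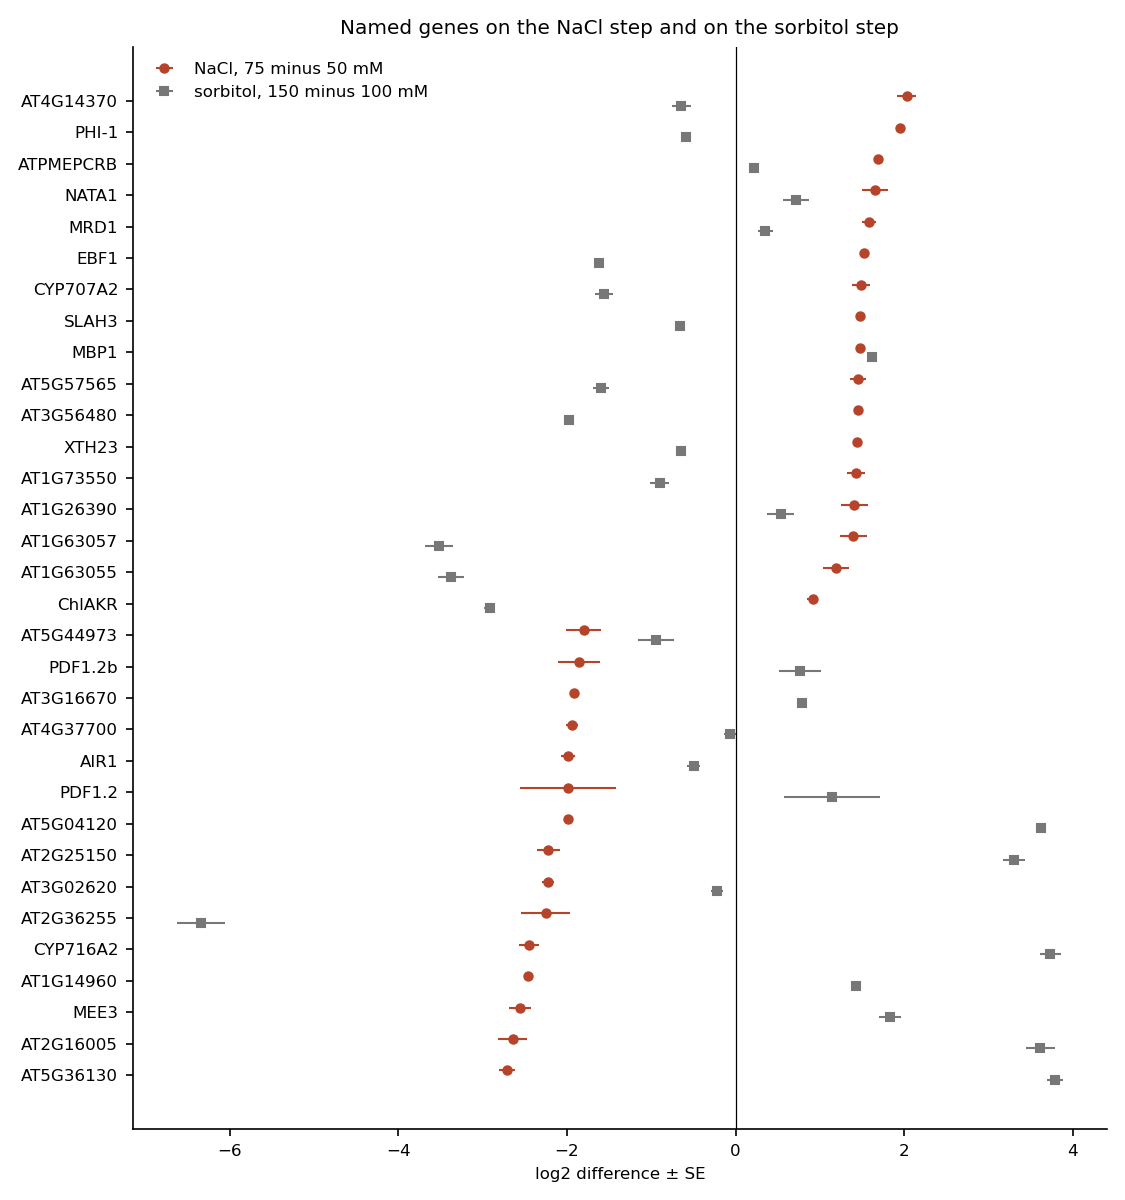
Log2 difference with its standard error (bars) on the NaCl step, 75 minus 50 mM (red circles), and on the iso-osmolar sorbitol step, 150 minus 100 mM (grey squares), for the leading rises and falls and the genes in which the steps differed most. Points of a gene on opposite sides of 0, such as EBF1 (1.52 and -1.62) and AT5G36130 (-2.71 and 3.79), moved in opposite directions. The sorbitol points of AT1G63057 and AT2G36255 rest on signals not well above background at 150 mM.

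Another NaCl step that shares no array with this one, from 100 to 125 mM, put 10162 genes (47.2%) past 0.01. Of the 2749 genes higher at 75 than at 50 mM, 1168 (42.5%) were also higher at 125 than at 100 mM, which was 28.8% of the genes higher there, and 525 (19.1%) were lower. Of the 3253 genes lower at 75 than at 50 mM, 1569 (48.2%) were also lower at 125 than at 100 mM, 25.7% of the genes lower there, and 425 (13.1%) were higher. Over all genes tested, 18.9% were higher and 28.4% lower on that step. The arrays at 100 mM lie on slides that also hold arrays at 50 or 75 mM. Replicates 2 and 3 at 75 mM and at 100 mM shared a slide, whose effect would enter these steps with opposite signs. What slide effects add to the overlap was not tested. CYP707A2 rose on both NaCl steps, while THAS1 and MRN1 fell on the step to 75 mM and had higher levels at 125 than at 100 mM.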

How the data were processed

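Total RNA of 27 samples in 9 groups was hybridised to 1-colour Agilent arrays. The authors deposited the scanner output, read with Agilent Feature Extraction 10.7, and a table of quantile-normalized intensities. The intensity used from the scanner output is Agilent's processed signal, background-subtracted by the scanner software. Before any log2, the deposited table matched the quantile-normalized processed signal for 100% of its values within 0.1%.

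Quantile normalization of the processed signals here ran over the 27 arrays, followed by log2, and 530 outlier spot values (0.0448%) were then set to missing. No spot was saturated. Of 35725 spots with a transcript accession, 34369 matched 1 gene in the RefSeq gene table, 25383 genes in all. The brightest probe stood for each of 6919 genes with several, and a gene was tested, as 21511 were, if each of the 3 arrays of some group had it well above background. Between 77.0% and 79.5% of spots were well above background at 75 mM and between 75.0% and 78.2% at 50 mM, and the number of arrays limits the precision. The difference between the doses was a contrast of 9 group means in limma 3.58.1 (R 4.3.3), with Benjamini-Hochberg adjustment over all genes tested and a threshold of 0.01. The script was tested on simulated data. Alternatives were scaling to the 75th percentile, normexp background with offset 50 (on median signals, as mean signals were not used here), the deposited table, no filter, the mean of all probes, slide as a block, a replicate block, subsets of arrays, leaving out each array and a threshold of 0.05. The 3 additions made after seeing the data were slide with the 75th percentile scaling, the comparison of the steps without replicate 1 at sorbitol 150 mM, and the pair of arrays on 1 slide. The fit without that replicate was itself planned, as part of leaving out each array.

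Named genes were the 15 largest rises and falls, up to 5 each way detected at 1 dose only, the 4 largest changes in each gene list, the 5 largest differences between the NaCl and the sorbitol step each way, and 8 genes fixed by name. The leading rises and falls and the genes detected at 1 dose only had to show no overlap between the arrays of the doses. Other members named in the text were chosen after their values were seen. The genes and lists were chosen with earlier results of these data known. The probe sequences and promoters were not analysed here.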

Additional observations from a re-analysis of the deposited data

Results flagged for a closer look

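The step on NaCl (75 minus 50 mM) differed from the iso-osmolar step on sorbitol (150 minus 100 mM) past 0.01 in 126 of the 143 named genes. The test was a limma contrast of the steps adjusted over all genes tested, of which 41.9% passed. Most named genes were chosen for the size of their NaCl step or of this difference, so their count is only a description. Given here are 22 of the 126, which passed in opposite directions on the steps. They were taken from the leading rises and falls, the largest differences between the steps and the genes fixed by name. Each value is the NaCl step minus the sorbitol step in log2. Among the genes that rose on NaCl the difference was 4.92 for AT1G63057, 4.56 for AT1G63055, 3.83 for ChlAKR, 3.42 for AT3G56480, 3.14 for EBF1, 3.05 for CYP707A2 and 3.05 for AT5G57565. It was 2.67 for AT4G14370, 2.53 for PHI-1, 2.33 for AT1G73550, 2.14 for SLAH3, 2.09 for XTH23 and 1.96 for HKT1. Each of these 13 genes rose on NaCl and fell on sorbitol. AT1G63057 was well above background on 0 of 3 arrays at sorbitol 150 mM, so the size of its difference is not measured.

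Among the genes that fell on NaCl it was -6.50 for AT5G36130, -6.26 for AT2G16005, -6.18 for CYP716A2, -5.61 for AT5G04120, -5.52 for AT2G25150, -4.39 for MEE3, -3.89 for AT1G14960 and -2.70 for AT3G16670. Each of these 8 genes fell on NaCl and rose on sorbitol. For RD29A the difference was -0.48, from a fall of 0.26 on NaCl and a rise of 0.22 on sorbitol. Both steps rest on 3 arrays per dose, and no slide holds arrays of both steps.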

How the results depend on the processing

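The count of genes past 0.01 on the NaCl step, 6002, lay between 4937 (normexp background) and 8127 (threshold of 0.05) under the other settings and between 5004 and 5097 when an array of either dose was left out. With 75th percentile scaling it was 6335. The count changed at least 2-fold, 225, was 57 with normexp background (28 higher and 29 lower), which adds an offset of 50 to every signal, and 214 to 225 with an array left out. The sorbitol step stayed between 7974 and 12038 genes, the difference of the steps between 7849 and 11309, and the step from 100 to 125 mM NaCl between 7471 and 12792. Of 138 named genes past the threshold, 114 passed under each of 16 alternatives, 24 missed it under at least 1, and 0 passed in the opposite direction. Over all settings fitted, the difference of LHCB1.4 lay between -0.85 and 0.0006. The 75th percentile scaling with slide in the fit, added after seeing the data and not among the 16, also lost PHT1;3 and SULTR2;1. PDF1.2 missed it under 11 of 16 settings, HSP17.6II under 10, SAUR17 and CYCD3;3 under 7, rps15ab under 6 and RPS15 under 4. The mean of all probes lost EBF1, CYP707A3, CCA1, IAA13, PRR7, SAPX and SULTR1;2. With slide in the fit 131 of the 138 passed.

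Of 28 lists, 7 had a count that moved by over 1.5 times: antioxidant enzymes were 3 against 5 and glucosinolate synthesis 6 against 10 with slide in the fit, cell cycle and histone genes 2 against 5 and ribosomal proteins 2 against 6 with normexp background, photosynthesis 3 with normexp background and 11 with the mean of all probes against 6, and the cold and seed lists changed by 1 or 2 genes. The causes were not tested. Replicate numbers did not pair the samples: deviations of same-numbered arrays correlated at 0.05, 0.06 and 0.02. A replicate block gave 6439 genes. The planned search of promoter windows was not run, as no promoter sequences were used here. With 3 arrays against 3, an exact test of a single gene cannot go below 0.1.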

Other observations

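Other hormone and stress genes changed on the step without a common direction. The shares over all genes, to be set beside each count in this section, were 12.8% higher and 15.1% lower. Of 12 genes of ethylene perception and response, gathered after values were seen, 3 were higher at 75 mM and 0 lower: EBF1, and the receptor genes ERS1 (0.21 ± 0.02, SE) and ETR2 (0.17 ± 0.04). EBF2 was 13.60, 13.70 and 13.77 at 75 mM and 13.50, 13.62 and 13.56 at 50 mM and did not pass (adjusted p = 0.504 by limma). Of 13 heat shock genes tested, 3 were higher and 5 lower. HSFA3 rose by 0.78 ± 0.04, while the heat shock factor genes HSFA2 and HSFA7A fell by 0.73 ± 0.09 and 0.55 ± 0.04. Of 14 hypoxia genes, 5 were higher and 1 lower, with the haemoglobin gene HB1 higher by 0.52 ± 0.03 and the repressor gene HRA1 lower (-0.41 ± 0.03).

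Senescence and nitrogen genes also went both ways. Of 15 senescence and sugar starvation genes tested, 5 were higher and 4 lower. SEN1, a gene induced by darkness and senescence, was 11.03, 10.98 and 11.03 at 75 mM and 12.12, 12.06 and 12.08 at 50 mM, a fall of 1.07 ± 0.02. The senescence transcription factor gene NAP was 9.65, 9.63 and 9.59 at 75 mM and 10.34, 10.57 and 10.47 at 50 mM, 1.79-fold lower, and SAG29 rose by 0.52 ± 0.04. Of 23 nitrate genes, 5 were higher and 5 lower. The glutamine synthetase genes moved apart, GLN1;3 up by 0.82 ± 0.04 and GLN1;4 down by 0.60 ± 0.03, and the nitrate transporter gene NRT2.5 was 4.40, 4.56 and 4.59 at 75 mM and 5.28, 5.31 and 5.42 at 50 mM. Of 20 sulfate genes, 4 were higher and 3 lower, against 12.8% and 15.1% of all genes. Of 27 antioxidant enzyme genes, 2 were higher and 3 lower, with the glutathione peroxidase gene GPX7 higher by 0.72 ± 0.04. Among 8 cold-regulated transcription factor genes RAV1 rose, by 0.53 ± 0.03, and among 14 seed genes EM6 rose, by 0.38 ± 0.07.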
